A study of Sus scrofa with 12 samples.

Results

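Heat shock proteins and the cochaperones that work with them were described in skeletal muscle RNA of 12 pigs (Sus scrofa). The members were the genes whose symbol begins with HSP and a family letter or 90, with DNAJ, with BAG and a digit, or with CCT and a digit. The rule found 56 genes among the 20741 features of each animal's whole-genome count table, of which 10349 features had a symbol. After a filter on low counts 48 of the 56 members were tested, among 10093 features in all. Of the 33 chaperone genes that were to be given in any case, 15 had no identifier of that symbol, among them HSPA1A, HSPB1 and HSPH1, and they were not analysed here.

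The study compared animals labelled with high drip and low drip, which stands for the water that meat loses after slaughter. Each drip group held 6 animals, 3 female and 3 male, aged 167 to 189 days (176.3 ± 6.92 days in high drip and 177.7 ± 6.74 days in low drip, mean ± SD). No treatment or genotype was labelled. The labels name the tissue only as muscle, and 4 of 9 listed muscle fibre transcripts were tested, with a summed level of 86470 to 127600 CPM. CPM is a feature's count relative to all counts of the tested features of its library, scaled with TMM factors. Libraries held 8009627 to 12622043 counts, and intervals cover the spread between these animals.

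Certain libraries stood apart. For 3 females (low drip replicate 1, high drip replicate 2 and low drip replicate 2) the table recorded for the animal carried another animal's number. The table carrying the animal's own number shared 737 to 745 of 770 identical counts with its separate table of chromosomal regions, and any other table shared at most 167. Tables were therefore given to animals by number, and results with the recorded tables and with the 9 other animals were computed beside them. Liver transcripts were present in 6 libraries, high drip replicates 1 to 4 and low drip replicates 5 and 6, with albumin (ALB) at 25.6 to 316.5 CPM of the whole library, without TMM factors, against 0.327 to 2.49 in the other 6. The 10 hepatocyte genes tested, of 16 listed, summed to 5.47 to 549.8 CPM in high drip animals and 5.33 to 94.1 CPM in the low drip ones. The libraries without liver transcripts came from high drip replicates 5 and 6, both male, and low drip replicates 1 to 4. Of the latter only replicate 4 is male. A drip fold within these libraries rests on few animals and is hardly separated from sex.

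Chaperones bind proteins that are unfolded or partly folded and help them to fold, to assemble or to reach the degradation machinery. Hsp70 proteins are driven through their ATP cycle by Hsp40 (DNAJ) partners and are emptied by exchange factors such as the BAG proteins, while Hsp90 acts later on a narrower set of clients. In muscle the small heat shock protein HSPB8, the exchange factor BAG3 and Hsp70 form a machinery that removes damaged filamin C (FLNC), a crosslinker of actin at the Z-disc, and the chaperonin TRiC, built of CCT subunits, folds actin and tubulin.

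For no member was a difference between drip groups detected beyond the spread of the animals. With edgeR's quasi-likelihood test 0 of 48 members passed an adjusted p of 0.05, against 0 of 10093 features (0%), and every member's adjusted p was 0.999. At an unadjusted p under 0.05 the counts were 0 of 48 members and 361 of 10093 features (3.58%). DESeq2 and limma-voom each called 0 members too. In bulk muscle RNA, fewer cells of a type and less RNA per cell cannot be told apart. Of the members, 21 were higher and 27 lower in high drip animals, with a median log2 fold of -0.03, beside 0.00464 over all features. CPM ranges of the drip groups overlapped for all 48 members, and did not overlap for 9 of 10093 features (0.0892%).

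**Figure D1:**
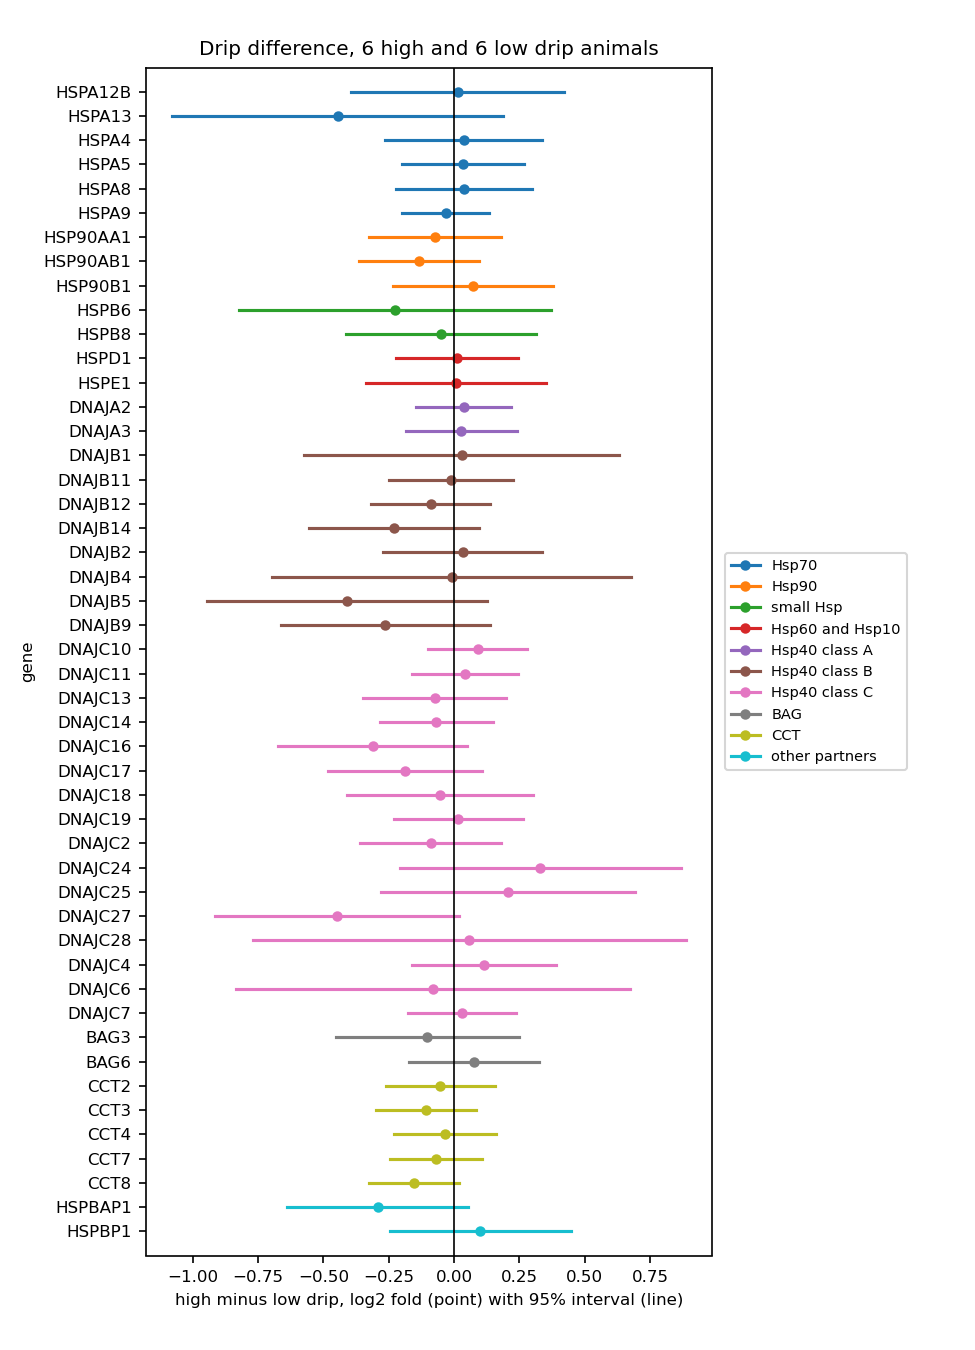
Log2 fold between 6 high drip and 6 low drip animals for the 48 tested genes (points), with the 95% interval of the edgeR fit (lines), in the colour of each family. All 48 intervals reach across 0, from -0.45 for DNAJC27 to 0.33 for DNAJC24 in the fitted values.

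The intervals bound how large a drip difference could be. For 34 of 48 members the 95% interval of the fold lay within 0.5 on the log2 scale (1.41-fold) in both directions, and for 47 of 48 within 1. All 5 CCT subunits, all 3 Hsp90 genes and 5 of 6 Hsp70 genes had intervals within 0.5, but only 3 of 8 class B DNAJ genes did. In simulated data of the same depth, the test recovered 40.3% of features changed 1.5-fold and 82.1% of those changed 2-fold in the drip comparison. Those data held 67 features changed 1.5-fold, 67 changed 2-fold and 66 changed 4-fold. So many changed features ease the adjustment of p, and a single changed gene would be recovered less often. Each feature was also simulated independently of the others and without the liver transcripts of some libraries. Recovery in the real libraries may therefore differ from these shares.

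Among the Hsp70 genes, HSPA8, the constitutive cytosolic Hsp70, ranged from 358.9 to 511.5 CPM (median 422.2) in high drip animals and from 347.6 to 485.1 CPM (median 428.8) in the low drip ones. The ranges lay over each other, and the log2 fold was 0.04 ± 0.12 (SE). HSPA5, the Hsp70 of the endoplasmic reticulum, ranged from 158.7 to 215.4 CPM (median 175.3) and from 137.1 to 200.5 CPM (median 182.9), with a log2 fold of 0.03 ± 0.11. Both genes thus had an interval narrower than 0.5 on either side, HSPA8 from -0.22 to 0.30 and HSPA5 from -0.20 to 0.27.

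HSPA9, the mitochondrial Hsp70 that pulls imported proteins through the inner membrane, was the steadiest member. It ranged from 394.9 to 453.6 CPM in high drip animals and from 401.1 to 455.2 CPM in the low drip ones, a ratio of highest to lowest of 1.15. Only 2 of 376 features within 2-fold of its mean level had a smaller SD of log2 CPM. Its log2 fold was -0.03 ± 0.08.

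HSPA4, an Hsp110-like exchange factor of Hsp70, ranged from 142.1 to 225.0 CPM in high drip (median 206.6) and from 156.9 to 246.9 CPM in low drip animals (median 186.5). Its lowest value was in high drip replicate 2 and its highest in low drip replicate 5, and the groups overlapped. HSPA13, an Hsp70-like protein of microsomes, ranged from 6.17 to 13.3 CPM (median 8.49) in high drip animals and from 4.03 to 17.2 CPM (median 13.5) in the low drip ones. Both the lowest and the highest of its 12 values belonged to low drip females, replicates 3 and 1. Its log2 fold was -0.45 ± 0.30 (edgeR, unadjusted p = 0.154), and it was 0.06 in the 9 animals whose recorded table matched their number and 0.20 within the libraries without liver transcripts. HSPA12B, a divergent Hsp70 of endothelial cells, had a log2 fold of 0.01.

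Of the Hsp90 genes, HSP90AA1, the stress-inducible cytosolic form, ranged from 681.8 to 936.6 CPM (median 840.4) in high drip animals and from 686.2 to 1025 CPM (median 896.2) in the low drip ones. HSP90AB1, the constitutive form, ranged from 610.6 to 876.3 CPM (median 643.4) and from 681.4 to 828.5 CPM (median 746.1). The low drip animals held the higher median for both genes, yet the ranges overlapped, and the log2 folds were -0.07 ± 0.12 for HSP90AA1 and -0.14 ± 0.11 for HSP90AB1. Within females the HSP90AB1 fold was 0.03. HSP90B1, the Hsp90 of the endoplasmic reticulum, had the widest spread of the 3, from 80.1 to 133.8 CPM and from 82.0 to 135.2 CPM, with a log2 fold of 0.07 ± 0.14. The Hsp90 genes summed to 1619 ± 182.9 CPM in high drip animals and 1725 ± 176.9 CPM in the low drip ones (SD, n = 6 each).

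HSPB8, the small heat shock protein that partners BAG3, ranged from 1468 to 2712 CPM (median 2045) in high drip animals and from 1477 to 2671 CPM (median 2152) in the low drip ones. Each group held a low animal, high drip replicate 6 and low drip replicate 4, so the groups covered the same range. Its log2 fold was -0.05 ± 0.17. HSPB6, a small heat shock protein of striated and smooth muscle also known as Hsp20, ranged from 9.72 to 23.6 CPM (median 13.7) and from 10.35 to 31.1 CPM (median 16.6), with a log2 fold of -0.23 ± 0.28. The highest HSPB6 value was in low drip replicate 4, one of the animals in which HSPB8 was low.

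BAG3, which links Hsp70 to the small heat shock proteins, ranged from 355.3 to 623.5 CPM (median 448.4) in high drip animals and from 316.1 to 679.8 CPM (median 527.1) in the low drip ones. Low drip animals held both the lowest value (replicate 4) and the highest (replicate 1). Its log2 fold was -0.10 ± 0.16. BAG6, which guards newly made membrane proteins in the cytosol, had a log2 fold of 0.08 ± 0.12, from 107.7 to 145.5 CPM and from 98.3 to 161.4 CPM.

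The class B DNAJ genes, most of which feed clients to Hsp70, had the widest median spread over animals of the families with 3 or more tested genes. DNAJB1, the inducible Hsp40, ranged from 19.4 to 48.6 CPM (median 32.9) in high drip animals and from 12.0 to 55.05 CPM (median 31.7) in the low drip ones. The lowest and highest of the 12, low drip replicates 2 and 3, were both low drip females and differed 4.59-fold. The log2 fold between drip groups was 0.03 ± 0.28, with an interval from -0.57 to 0.63.

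DNAJB5, an Hsp40 of the cytosol and nucleus, ranged from 208.4 to 640.5 CPM (median 328.5) in high drip animals and from 260.2 to 705.1 CPM (median 483.8) in the low drip ones. It was high in low drip replicates 1 and 2 and high drip replicate 3, and low in replicates 5 and 6 of high drip and replicate 4 of low drip, so the groups overlapped over most of their range. The log2 fold was -0.41 ± 0.25 (edgeR, unadjusted p = 0.123, adjusted p = 0.999). DNAJB4, a further cytosolic Hsp40, ranged from 144.4 to 491.9 CPM (median 217.3) and from 108.5 to 415.2 CPM (median 274.3), a 4.53-fold range with a log2 fold of -0.01 ± 0.32. Its highest value was in high drip replicate 4 and its lowest in low drip replicate 4.

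DNAJB9, an Hsp40 of the endoplasmic reticulum induced by the unfolded protein response, ranged from 67.0 to 118.7 CPM (median 83.2) in high drip animals and from 70.0 to 142.0 CPM (median 98.2) in the low drip ones. The upper end was reached by low drip replicate 6. The log2 fold was -0.26 ± 0.19, and it was 0.17 within the libraries without liver transcripts. DNAJB2, an Hsp40 that hands clients to the proteasome, ranged from 45.8 to 60.5 CPM and from 38.05 to 70.1 CPM, with a log2 fold of 0.03. The other class B genes, DNAJB11, DNAJB12 and DNAJB14, had log2 folds of -0.01, -0.09 and -0.23.

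The class A genes DNAJA2, a cytosolic Hsp40, and DNAJA3, a mitochondrial one, varied little. DNAJA2 ranged from 79.9 to 92.0 CPM in high drip animals and from 70.7 to 91.95 CPM in the low drip ones, and DNAJA3 from 50.9 to 55.5 CPM and from 43.8 to 64.05 CPM. Their log2 folds were 0.04 and 0.03.

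Class C DNAJ proteins mostly bring Hsp70 to one place or task. DNAJC7, a cytosolic partner of Hsp70 and Hsp90, ranged from 174.9 to 251.1 CPM in high drip animals and from 182.0 to 216.8 CPM in the low drip ones, with a log2 fold of 0.03. Of the 16 tested class C genes 8 were higher and 8 lower in high drip animals, with a median log2 fold of -0.02, from -0.45 to 0.33. DNAJC28 had the widest spread of any member, from 2.07 to 10.1 CPM and from 3.13 to 11.2 CPM. Its values, like those of other members at this level, rest on few counts.

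DNAJC27, a DNAJ protein with a small GTPase domain, had the smallest p of all members for drip. It ranged from 1.09 to 2.46 CPM (median 1.29) in high drip animals and from 1.81 to 2.17 CPM (median 2.14) in the low drip ones, with a log2 fold of -0.45 ± 0.22 (edgeR, unadjusted p = 0.0595, adjusted p = 0.999). The low values were those of high drip replicates 1 to 4 (1.09 to 1.38 CPM), which are also the high drip libraries with liver transcripts, while high drip replicates 5 and 6 had 2.01 and 2.46 CPM. Low drip replicates 5 and 6, which held liver transcripts too, had 2.17 and 2.15 CPM. Within the libraries without liver transcripts the fold was 0.07, with only replicates 5 and 6, both male, in the high drip group.

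HSPD1 and HSPE1 encode Hsp60 and its lid Hsp10, which fold proteins in the mitochondrial matrix. HSPD1 ranged from 161.2 to 216.9 CPM (median 204.6) in high drip animals and from 157.1 to 233.1 CPM (median 200.2) in the low drip ones, and HSPE1 from 153.3 to 264.2 CPM (median 218.3) and from 137.0 to 269.1 CPM (median 207.7). Each drip group held both low and high animals for the pair. The log2 folds were 0.01 ± 0.11 and 0.01 ± 0.16.

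The tested CCT subunits were CCT2, CCT3, CCT4, CCT7 and CCT8, each a wall segment of the chaperonin ring. CCT8 ranged from 146.0 to 180.0 CPM (median 160.9) in high drip animals and from 159.8 to 194.8 CPM (median 186.4) in the low drip ones, with a log2 fold of -0.15 ± 0.08 (edgeR, unadjusted p = 0.0791, adjusted p = 0.999). The low end was high drip replicate 2 and the 3 highest were low drip replicates 4 to 6, while the groups overlapped in between. CCT4 ranged from 195.5 to 254.4 CPM and from 208.3 to 264.9 CPM, with a log2 fold of -0.03 ± 0.09, and CCT2 from 168.3 to 217.1 CPM and from 166.3 to 222.5 CPM, with a log2 fold of -0.05 ± 0.10.

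All 5 subunits had a negative log2 fold, from -0.15 to -0.03, as did TCP1, the subunit named without the CCT prefix (-0.08 ± 0.09), and none passed the test. The 5 subunits summed to 1012 ± 84.5 CPM in high drip animals and 1071 ± 40.5 CPM in the low drip ones (SD, n = 6 each). High drip replicate 2 had the lowest sum, 896.6 CPM, and the lowest value of 4 of the 5 subunits. It is also the library with the most albumin (316.5 CPM of all counts) and one of the 3 whose recorded table belonged to another animal. Without it 4 of 5 subunits had a negative fold, from -0.14 to 0.00, and with the tables as recorded all 5 did, from -0.05 to -0.01. Within females 4 of 5 were negative (-0.10 to 0.09), and within males all 5 were (-0.21 to -0.06). Within libraries without liver transcripts 4 of 5 were negative (-0.17 to 0.09), and within those with them all 5 were (-0.37 to -0.09). In the latter the low drip group is replicates 5 and 6 alone, both male. Over all features 51.2% had a positive fold. The subunits varied together over the animals, so their shared sign is not 5 separate results.

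HSPBP1, an exchange factor of Hsp70, and HSPBAP1, a protein that binds small heat shock proteins, share the prefix but are no heat shock proteins themselves. HSPBAP1 ranged from 8.39 to 15.1 CPM (median 10.5) in high drip animals and from 11.8 to 17.35 CPM (median 13.5) in the low drip ones. High drip animals made up the lower end, and the ranges overlapped, with a log2 fold of -0.29 ± 0.16 (edgeR, unadjusted p = 0.0925). HSPBP1 ranged from 14.25 to 19.3 CPM and from 11.6 to 21.2 CPM, with a log2 fold of 0.10 ± 0.16.

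Males and females were compared in the same fit. With edgeR 0 of 48 members and 0 of 10093 features (0%) passed the adjusted p of 0.05 for sex, and 0 of 48 members against 674 features (6.68%) had an unadjusted p under 0.05. DNAJC10, a disulfide reductase of the endoplasmic reticulum, HSPD1, HSP90B1 and DNAJB5 had the smallest unadjusted p-values among the members, 0.0605, 0.0681, 0.0683 and 0.0704 (DNAJC10 was named after its values were seen). Their log2 folds, male minus female, were 0.18 for DNAJC10, 0.22 for HSPD1, 0.28 for HSP90B1 and -0.49 for DNAJB5.

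The difference of the drip difference between sexes was tested as an interaction. Again 0 of 48 members and 0 of 10093 features (0%) passed with edgeR, and 1 member against 345 features (3.42%) had an unadjusted p under 0.05. That member was DNAJC13, an endosomal DNAJ protein, named here after its values were seen. In females it stood at 26.0 ± 3.28 CPM in high drip animals and 22.65 ± 1.88 CPM in the low drip ones, and in males at 22.4 ± 3.75 CPM and 28.45 ± 0.871 CPM (SD, n = 3 each). The interaction was -0.54 ± 0.22 on the log2 scale (edgeR, unadjusted p = 0.0285, adjusted p = 1.00). Liver transcripts were in 3 of 3 high drip females, 1 of 3 high drip males, 0 of 3 low drip females and 2 of 3 low drip males, and with liver transcripts as a term the interaction was -0.62 ± 0.33 (edgeR, unadjusted p = 0.0826). In simulated data, made in the same simplified way, the interaction test recovered 7.46% of features with a 2-fold and 51.5% with a 4-fold interaction. Most 2-fold interactions were thus missed there, and recovery in the real libraries may differ.

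The members ranged widely in how much they varied from animal to animal. The median SD of log2 CPM over the 12 animals was 0.216 for the 48 members and 0.288 for all features, and the median ratio of the highest to the lowest animal was 1.65 and 1.97. Because spread is wider at low counts, each member was set beside the features within 2-fold of its own mean level. For 22 of 48 members the SD was above that of 50% of such features, for 7 above 90%, and for 5 above fewer than 10%. By the way the measure is built, about 50%, 10% and 10% of all features lie past these cuts. The counts of members lay near those shares.

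**Figure D2:**
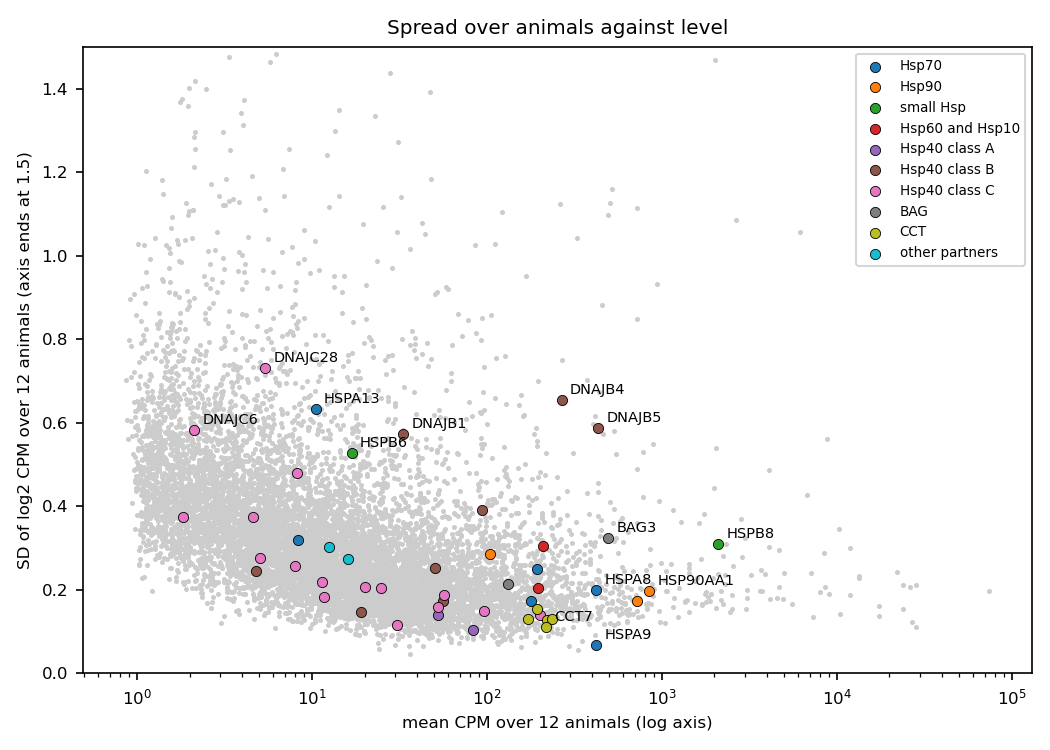
SD of log2 CPM over the 12 animals against mean CPM (log axis) for all 10093 tested features (grey) and the 48 members (coloured by family). DNAJB4 and DNAJB5 lie near the upper edge of the grey points at their level and HSPA9 at its lower edge; 27 features with an SD above 1.5 are beyond the axis.

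The 7 members above 90% of features of like level were 4 class B genes (DNAJB1, DNAJB4, DNAJB5 and DNAJB9), HSPA13, HSPB6 and DNAJC28. DNAJB4 had an SD of 0.65, larger than 97.7% of 597 features of like level, DNAJB1 one of 0.57, larger than 96.7% of 2870, and DNAJB5 one of 0.59, larger than 95.7% of 368. BAG3, with an SD of 0.32, stood above 82.3% of 311 features, and HSPB8, with 0.31, above 79.7% of 64.

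The 5 steadiest by the same measure were HSPA9 (0.532%), DNAJA2 (3.18%), DNAJC11 (3.63%), CCT7 (6.40%) and DNAJB11 (7.58%), where the percentage is the share of like features with a smaller SD. DNAJC11 belongs to the complex that shapes the inner mitochondrial membrane, and DNAJB11 is a cochaperone of HSPA5. The 5 CCT subunits had SDs of 0.11 to 0.15, with highest to lowest ratios of 1.29 to 1.37. The median SD was 0.32 for class B, 0.21 for class C, 0.22 for Hsp70, 0.20 for Hsp90 and 0.13 for CCT genes.

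**Figure D3:**
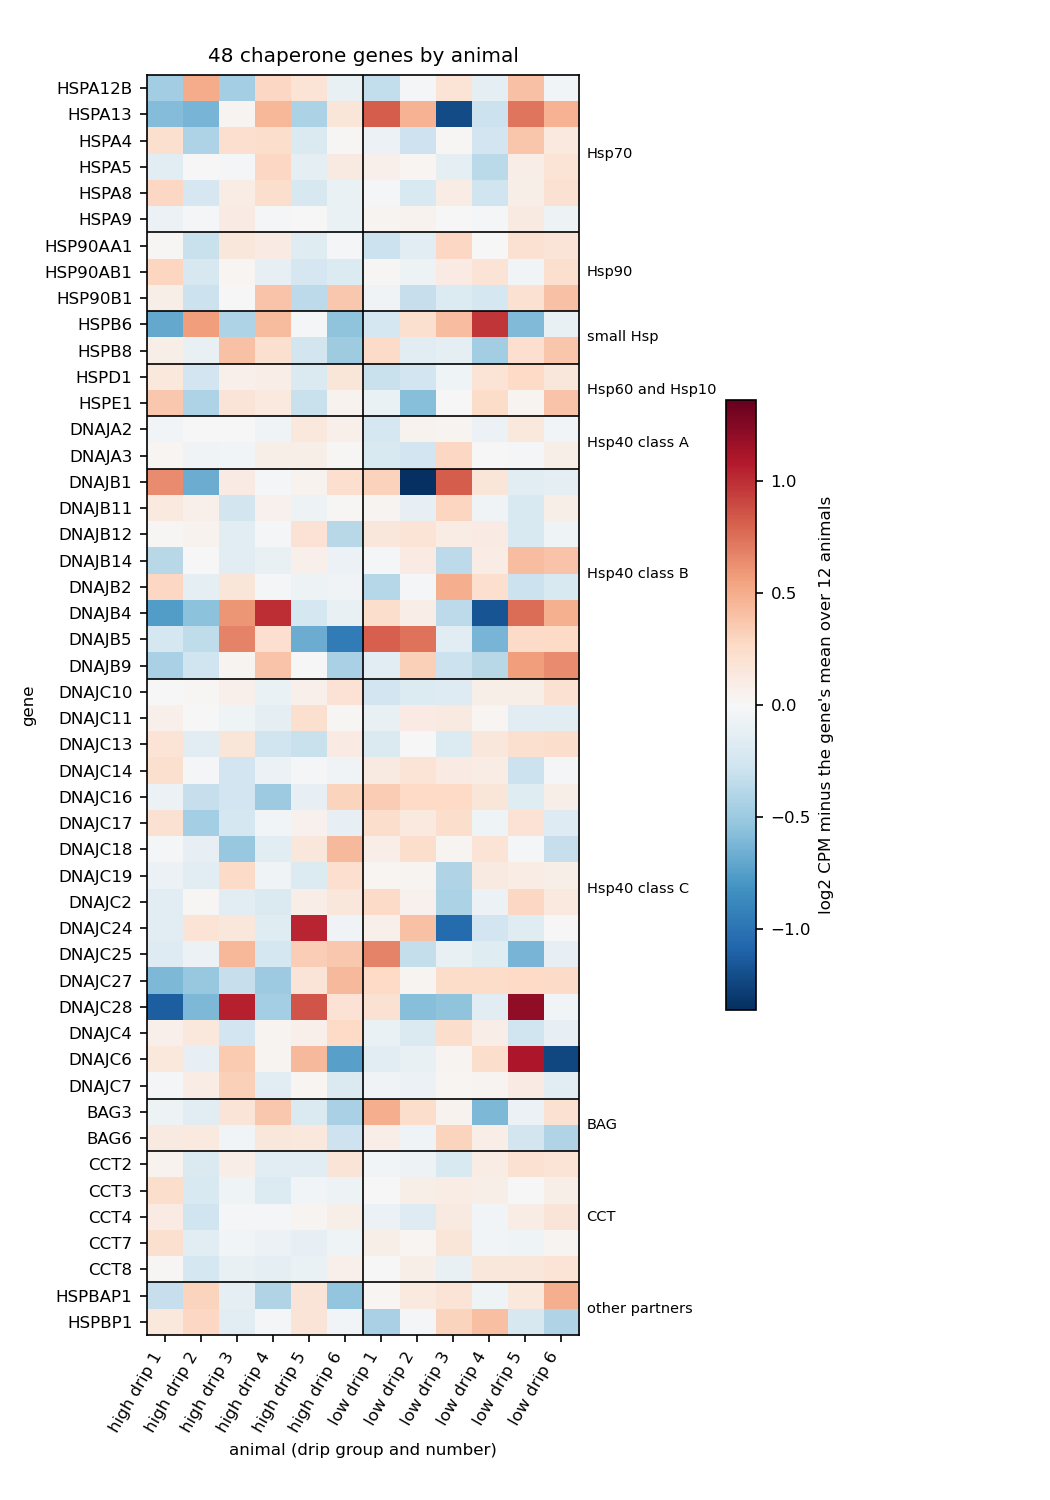
Log2 CPM of each of the 48 tested genes in each animal, less the gene's mean over 12 animals, grouped by family with high drip animals to the left of the line. Strong colours are found in single animals of both groups, mostly in class B and C genes, and the CCT, class A and HSPA9 rows are pale throughout.

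High drip replicate 2 was below the gene's mean for 34 of 48 members and low drip replicate 5 above it for 30, and in the other 10 animals 20 to 29 members were above it. Low drip replicates 5 and 6 held the highest value of 8 of 48 members each (16.7%), where they held the highest of 10.8% and 7.02% of all features. High drip replicates 2 and 6 held the lowest value of 7 members each (14.6%), against 7.14% and 6.72% of all features. The median deviation from a gene's mean over the 48 members was -0.13 on the log2 scale in high drip replicate 2 and 0.10 in low drip replicate 5, and it was 0.01 and 0.00 over all features. Both libraries held liver transcripts, as did high drip replicates 1, 3 and 4 and low drip replicate 6, where the median deviation was -0.03 to 0.08. A part of liver transcripts in these deviations was not tested.

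Co-variation over the animals was measured as Pearson's r of log2 CPM. Over the 1128 pairs of tested members the median r was 0.01 and 50.9% of pairs were positive, beside -0.00161 and 49.8% over all pairs of tested features. Within families the picture was uneven. All 10 pairs of CCT subunits were positive (0.03 to 0.84, median 0.47), as were the 3 Hsp90 pairs (0.16 to 0.49) and the HSPD1 and HSPE1 pair. Among class B genes 12 of 28 pairs were positive, with a median of -0.14 and a range from -0.70 to 0.79. These values are descriptions over the same 12 libraries, which share their scaling.

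**Figure D4:**
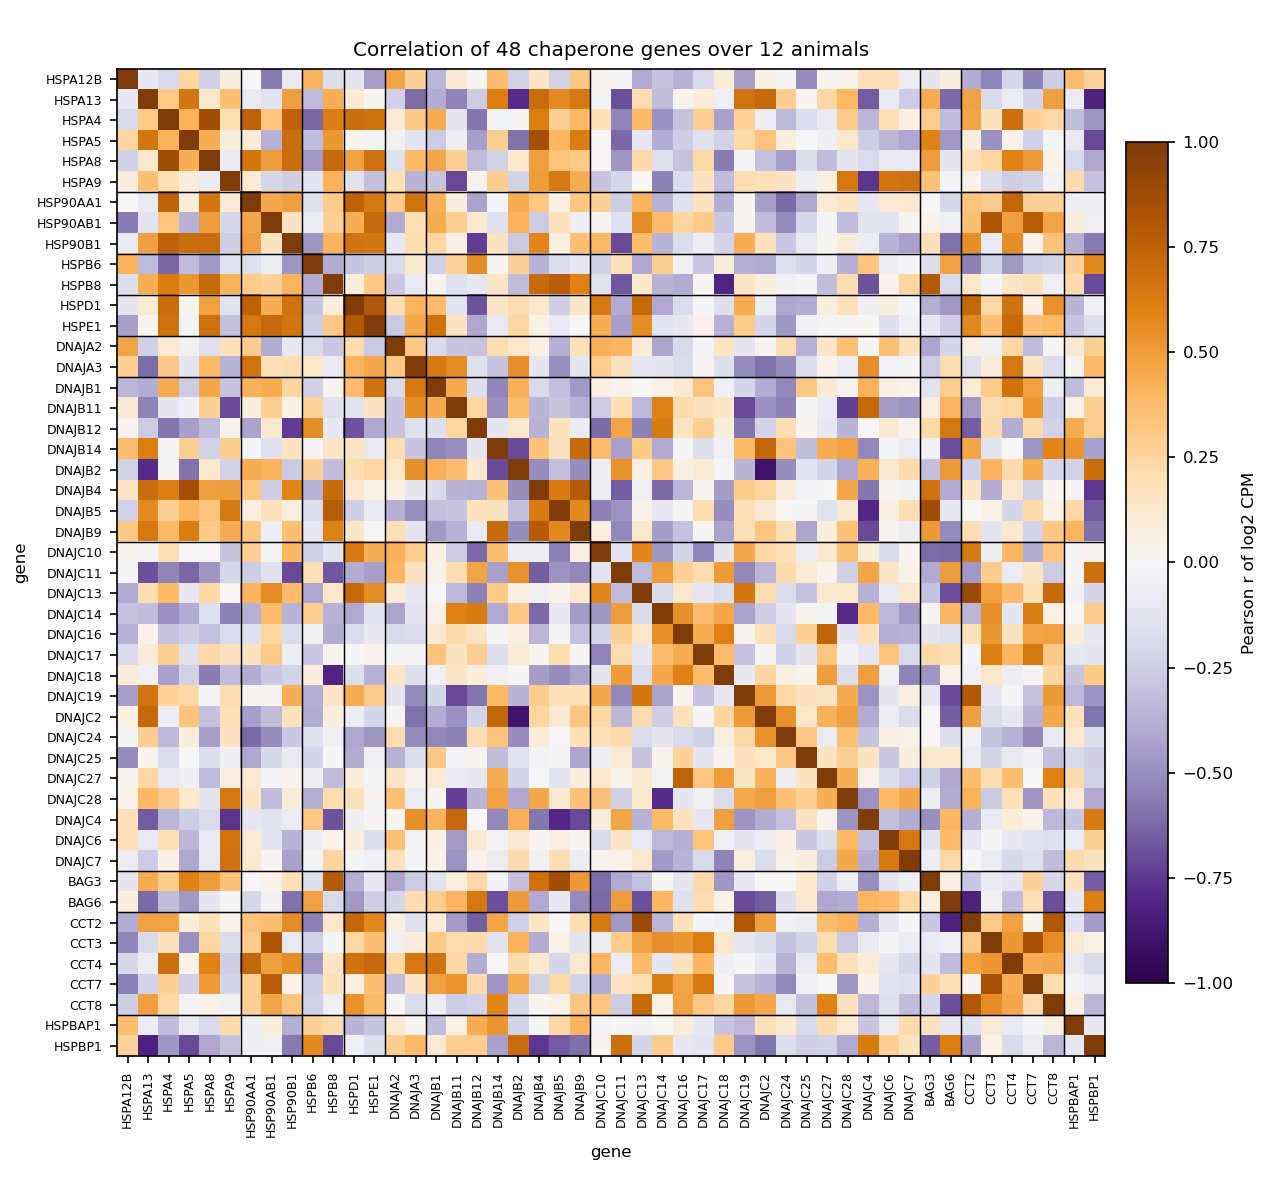
Pearson r of log2 CPM over 12 animals for every pair of the 48 tested genes, ordered by family (black lines). The CCT block, next to last before HSPBAP1 and HSPBP1 at the lower right, is positive throughout, while the class B block holds both positive and negative pairs.

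Strongly related pairs lay both within and across families, and the 5 given here were picked after their values were seen. DNAJC13 and CCT2 had r = 0.89 (rho 0.79), HSPA8 and HSPA4 had r = 0.86 (rho 0.82) and CCT7 and CCT3 had r = 0.84 (rho 0.87). DNAJC2, a ribosome-bound DNAJ protein, and DNAJB2 ran opposite to each other (r = -0.90, rho -0.84), as did HSPBP1 and HSPA13 (r = -0.83, rho -0.81). Each of these 5 pairs had the same sign within the libraries with and without liver transcripts and without the 2 animals farthest from the median of the first gene.

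For 1 gene of each compartment the correlation with every other tested feature was tested by 100000 permutations, with p adjusted over 10092 features. The genes were DNAJB1 for the cytosol, HSPA5 for the endoplasmic reticulum, HSPD1 for the mitochondria and CCT4 for the chaperonin, and BAG3 was added after its values were seen. For each of the 5 genes 0 of 47 other members and 0 of 10092 features (0%) passed an adjusted permutation p of 0.05. At an unadjusted p under 0.05 there were 3 of 47 members with DNAJB1, 8 with HSPA5, 9 with HSPD1, 7 with CCT4 and 6 with BAG3. Over all features the shares were 10.6%, 8.35%, 7.70%, 7.51% and 5.80%. Of those members 3, 5, 8, 7 and 4 had a positive r, in the same order. The relations that follow are therefore given as values.

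BAG3 and DNAJB5 varied together over the animals, with r = 0.87 (unadjusted permutation p = 0.00025, adjusted p = 0.296) and rho = 0.87 (adjusted permutation p = 0.424). It ranked 6 among 10092 features by r. Without the 2 animals farthest from the BAG3 median, low drip replicates 4 and 1, r was 0.85, and it was 0.62 in the libraries with and 0.91 in those without liver transcripts. BAG3 and HSPB8, which act in the same complex, had r = 0.78 (adjusted permutation p = 0.470), rho = 0.66, 0.69 without the same 2 animals, and 0.66 and 0.95 within the libraries with and without liver transcripts. BAG3 and DNAJB4 had r = 0.68 (adjusted permutation p = 0.779) and rho = 0.61.

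FLNC, the filamin that the BAG3 and HSPB8 machinery handles in muscle, ranged from 4182 CPM in high drip replicate 6 to 12980 CPM in low drip replicate 1. Those are the animals with a low and with the highest BAG3 level. The pair had r = 0.88 (unadjusted permutation p = 0.0002, adjusted p = 0.296, rank 3) and rho = 0.76, and r = 0.81 without the 2 farthest animals. The relation was r = 0.55 in the 6 libraries with and 0.98 in the 6 without liver transcripts. By r with BAG3, FLNC stood between ELL2 (0.89), a transcription elongation factor, and SEC13 (0.88), a coat protein of secretory vesicles. FLNC was on none of the planned gene lists, and BAG3 was added after its values were seen, so this relation was not planned.

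**Figure D5:**
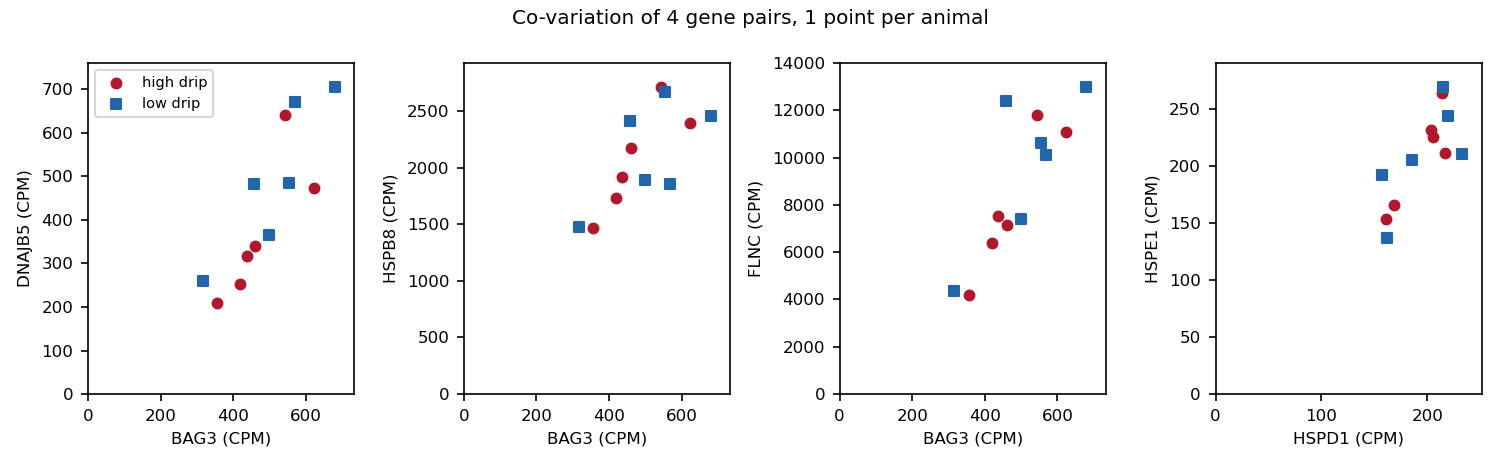
CPM of DNAJB5, HSPB8 and FLNC against BAG3, and of HSPE1 against HSPD1, with 1 point per animal and both axes starting at 0. High drip (circles) and low drip animals (squares) are spread along the same band in each panel.

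Transcripts of the immediate early response were set beside BAG3 and HSPA5, and none passed the adjusted threshold. ATF3, a stress-induced transcription factor, ranged from 67.4 to 1137 CPM over the animals and had r = 0.78 with BAG3 (adjusted permutation p = 0.426) and r = 0.82 with HSPA5 (adjusted permutation p = 0.325). FOS, from 30.9 to 818.9 CPM, had r = 0.65 with BAG3 and 0.27 with HSPA5. The other 4 tested, EGR1, IER2, IER3 and JUNB, had r of 0.17 to 0.57 with BAG3 and 0.04 to 0.56 with HSPA5. The 6 immediate early genes tested of 8 listed summed to 325.9 to 1475 CPM in high drip animals and 140.5 to 1564 CPM in the low drip ones, and their part in the chaperone relations was not tested. HSF2, a heat shock factor, ranged from 42.6 to 134.0 CPM and had r = 0.66 with BAG3 and 0.65 with HSPA5, while HSF1, the main stress-responsive factor, had r = -0.22 with BAG3.

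HSPA5, taken for the endoplasmic reticulum, had its closest member in the cytosolic Hsp40 DNAJB4 (r = 0.85, adjusted permutation p = 0.241, rho = 0.79, rank 9). Without the 2 animals farthest from the HSPA5 median, low drip replicate 4 and high drip replicate 4, r was 0.68. HSPA5 also had r = 0.70 with HSP90B1, 0.65 with HSPA13 and 0.62 with DNAJB9, which also act in that compartment, but -0.05 with its cochaperone DNAJB11, 0.00 with DNAJC10 and -0.71 with HSPBP1 (adjusted permutation p-values of 0.487 to 0.998). Markers of vessel walls were unequally related to HSPA5, and none passed the adjusted threshold. ACTA2 (r = 0.81) and TAGLN (0.79) of smooth muscle, and PECAM1 (0.79) of endothelium, had adjusted permutation p-values of 0.305 to 0.325, while r was 0.37 for TEK and 0.36 for KDR of endothelium and 0.26 for PDGFRB of pericytes. The 3 smooth muscle genes tested of 5 listed summed to 94.8 to 199.4 CPM in high drip animals and 97.0 to 193.4 CPM in the low drip ones, and the 3 endothelial genes of 5 to 168.9 to 254.9 CPM and 159.2 to 236.1 CPM. Their part in the relation was not tested.

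HSPD1 and HSPE1 had r = 0.80 (unadjusted permutation p = 0.00188, adjusted p = 0.433, rank 26) and rho = 0.69. The value was 0.82 without the 2 animals farthest from the HSPD1 median, low drip replicate 1 and high drip replicate 2, and 0.77 in both kinds of library. HSPA9, which works in the same compartment, had r = -0.14 with HSPD1. HSPD1 was closest to 2 genes that are no members, CAPRIN1 (r = 0.89), an RNA-binding protein, and ST13 (r = 0.87, adjusted permutation p = 0.433), a cytosolic partner of Hsp70. CCT4 had r = 0.73 with HSP90AA1, 0.71 with HSPE1, 0.68 with HSPA4 and 0.67 with HSPD1, with adjusted permutation p-values of 0.482 to 0.555. Without the 2 animals farthest from the CCT4 median, high drip replicate 2 and low drip replicate 2, these were 0.56, 0.31, 0.32 and 0.42.

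The nearest members of DNAJB1 were others. Its r with BAG3 was -0.14, and its 3 members with an unadjusted p under 0.05 were HSPE1 (0.67), CCT4 (0.66) and DNAJA3 (0.64). These rested on 2 animals: without low drip replicate 2 and high drip replicate 2, the lowest for DNAJB1, the values were 0.00, 0.15 and 0.34. FKBP4, a cochaperone of Hsp90, had r = 0.80 with DNAJB1 (adjusted permutation p = 0.264) and 0.77 without those animals. SGTA, a cochaperone of Hsp70 and BAG6, had 0.77 with them and 0.86 without. Neither passed the adjusted threshold. Both were picked from a list of other chaperone genes after their values were seen, and the rest of that list is not given for DNAJB1. Their values therefore do not stand for that list.

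The rest of the chaperone network was given by a list of 67 genes outside the rule, such as heat shock factors, cochaperones without the prefixes and proteins of the unfolded protein response. Of these 40 had an identifier and 37 were tested, 25 higher and 12 lower in high drip animals, with a median log2 fold of 0.04. Over all features 51.2% were higher. With edgeR 0 of 37 passed the adjusted p of 0.05 for drip, against 0% of all features. At an unadjusted p under 0.05 there was 1 of 37, against 361 of 10093 features (3.58%). It was FKBP5, an Hsp90 cochaperone that binds the glucocorticoid receptor complex, with 43.6 to 80.7 CPM (median 65.6) in high drip animals and 66.9 to 173.4 CPM (median 146.4) in the low drip ones. The ranges overlapped, and the log2 fold was -1.01 ± 0.23 (edgeR, unadjusted p = 0.000598, adjusted p = 0.999). Of the 15 Hsp90 cochaperones 9 were higher and 6 lower, of the 6 Hsp70 cochaperones 5 and 1, and of the 10 genes of the endoplasmic reticulum 7 and 3. HSF1 and HSF2 had log2 folds of 0.06 ± 0.16 and -0.29 ± 0.31.

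The 8 members left untested were barely counted. HSPA4L had 93 counts over the 12 libraries, DNAJB13 46, CCT6B 36, DNAJC9 6 and DNAJC22 2. CCT8L2, DNAJC5B and HSPB9 had 0 counts in every library. Many chaperone genes, HSPA8, HSP90AA1, HSPD1, HSPE1 and the CCT genes among them, have near-identical processed copies in mammalian genomes, and 12.8 to 15.5% of the reads in the tables were set aside by the authors as not uniquely aligned, so their levels are uncertain where copies share reads.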

How the data were processed

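Muscle RNA of 12 pigs was sequenced from TruSeq libraries, per the labels. Per the submitters' processing notes the tools were TopHat2 2.0.3, Bowtie 0.12.7.0 and HTSeq with build Sscrofa10.2, and the deposited values are raw counts per feature. Strand setting and annotation release are not given in the sources used here. Rows that name no feature were left out, 24.2 to 29.3% of reads without a feature and 0.653 to 0.784% ambiguous. Symbols came from an exact match of gene identifiers. The region tables served only to check which table belonged to which animal.

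Tests on the counts used edgeR 4.0.16 under R 4.3.3 (two-sided quasi-likelihood F-test, TMM factors, low counts filtered with filterByExpr) over all features, with drip and sex as terms and Benjamini-Hochberg adjustment. DESeq2 1.42.0, limma 3.58.1 (voom), other scaling, no filter, terms for age or liver transcripts (ALB from 10 CPM), other table assignments and leaving out each animal were alternatives. Fits within sexes and within libraries with or without liver transcripts, and BAG3 as a gene to correlate with, were chosen after seeing the data. Correlations used log2 CPM with a prior count of 2. The edgeR script was tested on simulated data. Genes were named by rule: in each family the member with the highest level, the largest SD and the smallest p for drip, and a list of common chaperones. The members and lists were chosen with earlier results of these data known. Gene lengths were not used here, so levels are not ranked between genes.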

Additional observations from a re-analysis of the deposited data

Results flagged for a closer look

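Of the 58 groups of 6 animals looked at (29 named genes in each drip group), 1 held an animal far from the others, by a measure that chance meets in about 1 in 20 groups. DNAJC27 stood at 1.81 CPM in low drip replicate 2, while the other 5 low drip animals lay between 2.13 and 2.17 CPM, so that its gap to the nearest was 0.902 of the whole range (critical value 0.625). Low drip replicate 2 is 1 of the 3 animals whose recorded table carried another number. DNAJC27 had only 10 to 27 counts in a library, so the gap rests on few counts. In 58 groups, 1 flag is no more than a rate of 1 in 20 gives.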

How the results depend on the processing

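For drip, sex and their interaction, 0 members passed under any alternative run. Over all features the count with an adjusted p under 0.05 was 0 for drip in every alternative but the one within libraries without liver transcripts (2). For sex it was 2 with DESeq2 and 1 with no filter, and for the interaction 4 with DESeq2 and 1 with liver transcripts as a term. For co-variation with DNAJB1, 14 features and 0 members passed after sex and drip were taken out, and 0 features otherwise; with HSPA5, HSPD1, CCT4 and BAG3 0 features passed in each alternative. Leaving out each animal in turn gave 0 calls for drip, sex and interaction, and a median log2 fold of the members of -0.07 to -0.01.

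Of 725 recomputed drip folds of the 29 named genes 122 had the other sign, and 22 of the 29 lay under 1 SE from 0 in the fit of all 12 animals. Among the 7 others the sign turned for DNAJB9 (0.17), DNAJC27 (0.070) and HSPA13 (0.20) within libraries without liver transcripts. There the high drip group is replicates 5 and 6 alone, both male. The sign also turned for HSPA13 (0.063) in the 9 animals without a conflict, and for HSP90AB1 (0.030) within females. The cause was not tested. The 12 animals limit the drip test to large differences for class B genes, and few counts limit DNAJC27, DNAJC28 and DNAJC6. No paired analysis was possible because the labels pair no animals.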
